A study of Mus musculus with 8 samples.

Results

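Livers of AKP female mice were compared with livers of AKP male mice, 2 arrays a side out of the 8 arrays of the series, with Keap1 intact in all 4 mice. Members were taken by title code, and the comparison covers autosomal genes. AKP mice carry an activated oncogene together with the p53 mutant R172H. The labels call the expression of both liver-specific, and the promoter or Cre driver, the ages and the strain are not given in the sources used here. Neither is it stated whether mice of one sex were littermates. The other 4 arrays, 2 males and 2 females of the AKP::Keap1 genotype, carry the same mutations and also lack Keap1 in the liver. They entered the model for the estimate of spread and for one comparison with the AKP difference. RNA came from whole liver, so fewer cells of a type and less RNA per cell cannot be told apart. Each array held 1 sample and p-values measure the spread between these samples. Both AKP male arrays were on one slide and scanned on one day, and both AKP female arrays were on another slide and scanned on another day. Slide, scan day and sex therefore cannot be told apart in any value below. Each AKP::Keap1 group was also alone on its own slide, so slide and genotype cannot be told apart where the genotypes are compared.

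Mouse liver is one of the most sexually dimorphic organs. Pituitary growth hormone is released in pulses in males and more continuously in females, and these patterns act on hepatocytes through the receptor Ghr and the transcription factor STAT5b. Together with the repressors Bcl6, more abundant in male liver, and Cux2, more abundant in female liver, they set the sex-typical levels of many cytochromes P450, sulfotransferases, transporters and secreted proteins.

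Levels are log2 of the processed spot signal relative to the array's 75th percentile, so 0 is the signal of a bright probe and -6 to -7 lies near the lowest signal well above background. Differences are female minus male on that log2 scale, with the standard error of the limma fit, and a gene was called at an adjusted p below 0.05. Between 65.7% and 70.1% of spots were well above background on the AKP arrays, and no spot was saturated. Of 8 Y-linked genes fitted, 4 were above background on both AKP male arrays and on no AKP female array. The hepatocyte product Alb had levels of 8.97 and 8.61 in males and 8.20 and 8.27 in females. The biliary keratin Krt19 had levels of -2.19 and -2.33 in males and -2.13 and -3.17 in females, without a call (adjusted p = 0.594). Keap1, the adaptor that directs Nrf2 to degradation, had levels of 1.73 and 2.05 in males and 1.55 and 1.63 in females. Its difference of -0.30 ± 0.15 (adjusted p = 0.183) was not called, and neither were Trp53 (0.47 ± 0.16, adjusted p = 0.0733) and Nfe2l2, the gene of Nrf2 (0.27 ± 0.14, adjusted p = 0.206).

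Of 14540 autosomal genes tested, 3344 (23.0%) were called. In females 1457 genes were higher (10.0% of those tested) and 1887 were lower (13.0%). At least 2-fold, 664 genes were higher and 480 lower, and at least 4-fold, 119 were higher and 109 lower. Both arrays of one sex lay above both of the other for 9797 genes (67.4%), and the median difference over all autosomal genes was -0.04. Differences also followed brightness: the median was 0.17 over the dimmest 10% of genes and -0.35 over the brightest 10%, and the part of slide or scan in this was not tested. Setting each array's median, in place of its 75th percentile, to 0 moved the median over all genes to -0.24, with 986 genes higher and 3862 lower. Quantile normalization gave 1083 higher and 1135 lower, and normexp background correction 891 higher and 1872 lower. With AKP male 1 left out 562 genes were called, with AKP female 1 out 771, with AKP female 2 out 1372 and with AKP male 2 out 1640, while every one of the 3344 genes, or 3343 where 1 could not be fitted, kept its sign.

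Steroid sulfotransferases attach sulfate to bile acids and hydroxysteroids. Sult2a1 had levels of 6.22 and 5.87 in females against -6.92 and -6.59 in males, where it was not well above background. Sult2a2 had 6.16 and 5.74 against -7.25 and -6.51, and Sult2a6 had 5.08 and 4.57 against -8.46 and -8.26. All 3 were thus bright on both female arrays and dark on both male arrays. The signals give bounds of at least 6609-fold higher for Sult2a1 (adjusted p = 2.7e-06), at least 6026-fold for Sult2a2 (8.5e-06) and at least 2838-fold for Sult2a6 (2.1e-04). Such a bound sets the bright mean against the lowest signal well above background on each dim array, or against that array's own signal where this is higher. The 2 Sult2a6 probes differed, with 7.28 and 13.19. Sult3a1 followed, with 0.52 and 2.11 in females and -8.71 and -7.35 in males (at least 249-fold higher, adjusted p = 0.0032). Sult3a2 was also dark in males and rose at least 3.31-fold (adjusted p = 0.0109). Of 16 sulfotransferases tested, these 5 rose and none fell, against 10.0% higher over all genes. The remaining 11 were not called, and the list median was 0.29. When genes had to be well above background on all 4 arrays, none of the 5 was tested, and only 1 sulfotransferase was called, as lower. Members of the Sult2a family are near-identical, and how far their probes share signal was not tested.

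Among the flavin monooxygenases, which oxidise nitrogen and sulfur in foreign compounds, Fmo1 (1.18 ± 0.14, adjusted p = 0.00612), Fmo2 (1.56 ± 0.22, adjusted p = 0.00931) and Fmo4 (2.36 ± 0.18, adjusted p = 0.0025) rose, whereas Fmo5 fell by 1.17 ± 0.22 (adjusted p = 0.0165). Fmo4 had levels of -1.56 and -2.0 in females and -4.26 and -4.02 in males, without overlap. Fmo5 lost its call without AKP male 1 and without AKP male 2, and Fmo2 without AKP female 1.

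Among the P450s, oxidases of steroids and foreign compounds, the Cyp2a, Cyp2b and Cyp3a subfamilies had 14 members tested. Of these, 7 rose and none fell, against 10.0% higher over all genes, with a median of 1.09. Cyp3a44 had levels of 4.59 and 5.21 in females and -5.16 and -2.71 in males (457-fold, adjusted p = 0.00266). Cyp2b13 had 4.92 and 4.37 against -4.36 and -1.28 (177-fold, adjusted p = 0.0112), and Cyp2b9 had 3.12 and 2.46 against -3.22 and -0.0029 (21.1-fold, adjusted p = 0.0393). Lack of overlap was a condition for naming these 3 genes, and in each AKP male 2 lay well above AKP male 1. Cyp2a22 rose 43.7-fold with tight pairs, 0.42 and -0.06 in females and -5.62 and -4.92 in males (adjusted p = 0.00266). The Cyp2a, Cyp2b and Cyp3a calls numbered 4 on the series matrix values or in the replicate block, 3 with no filter, 3 without AKP male 1, 2 without AKP female 1 and 3 without AKP female 2. Cyp2b9 lost its call under 8 of 15 alternatives, including quantile normalization and the 4 AKP arrays alone.

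The Cyp2c and Cyp2d subfamilies split. All 5 called Cyp2c genes rose, led by Cyp2c68 (2.44 ± 0.26, adjusted p = 0.00477), Cyp2c67 (2.18 ± 0.29, adjusted p = 0.00781) and Cyp2c29 (1.25 ± 0.16, adjusted p = 0.00781). All 4 called Cyp2d genes fell. Cyp2d9, a steroid hydroxylase, had 5.61 and 5.37 in males and 2.37 and 2.23 in females (9.11-fold lower, adjusted p = 0.00112). Over the 19 members tested the median was -0.07, with its sign turned after quantile normalization. Over all genes 10.0% were higher and 13.0% lower. In these subfamilies 2 genes were lower after quantile normalization, without AKP male 1 or without AKP female 2, and 7 were lower after the array-median shift; 3 genes were higher without AKP male 1 or AKP female 1.

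Other large rises lay outside drug metabolism. Slc22a27 had levels of 2.39 and 2.29 in females and -4.89 and -3.67 in males (98.2-fold, adjusted p = 0.0019), and Slc22a29 rose 64.4-fold (adjusted p = 0.00327). Both belong to a cluster of organic anion carriers. Tafa2, a small secreted protein of the chemokine-like TAFA family, had -0.25 and 0.11 against -6.03 and -5.19 (46.5-fold, adjusted p = 6.2e-04). Hao2, a peroxisomal hydroxy acid oxidase, had 2.42 and 2.62 against -8.17 and -6.44, with only 1 male array well above background (9.83 ± 0.51, adjusted p = 6.7e-04). Acot3, a peroxisomal acyl-CoA thioesterase, had 2.79 and 2.67 in females, -3.06 in AKP male 1 and -0.54 in AKP male 2 (23.1-fold, adjusted p = 0.0151). Nt5e, the ectoenzyme CD73 that forms adenosine, had 2.54 and 2.63 against -1.44 and -0.98 (13.9-fold, adjusted p = 0.0019). Prom1, the membrane protein CD133 used as a marker of biliary and progenitor cells, had 2.26 and 1.11 against -2.65 and -1.53 (13.7-fold, adjusted p = 0.00686). It was the only one of 28 biliary genes that rose. Of the others, 3 fell, a share near the 13.0% lower over all genes, and the list median was -0.30. Sox9 was among the 3 and fell by 1.45 ± 0.33 (adjusted p = 0.0273). Sox9 lost its call under 5 of 15 alternatives, including the 4 AKP arrays alone. Nipal1, a magnesium transporter, rose 13.3-fold (adjusted p = 0.0191). A1bg, a plasma glycoprotein, was dark in males (-8.93 and -8.83) and measured in females (-1.75 and 0.48), at least 64.4-fold higher (adjusted p = 0.00291). Hsd3b1, a steroid dehydrogenase, likewise rose at least 31.5-fold (adjusted p = 0.0145). The call of Acot3 was lost without AKP female 1 and without AKP female 2, that of Nipal1 also without these and on the 4 AKP arrays alone, and that of Hsd3b1 without AKP male 1, AKP male 2 or AKP female 2.

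**Figure D1:**
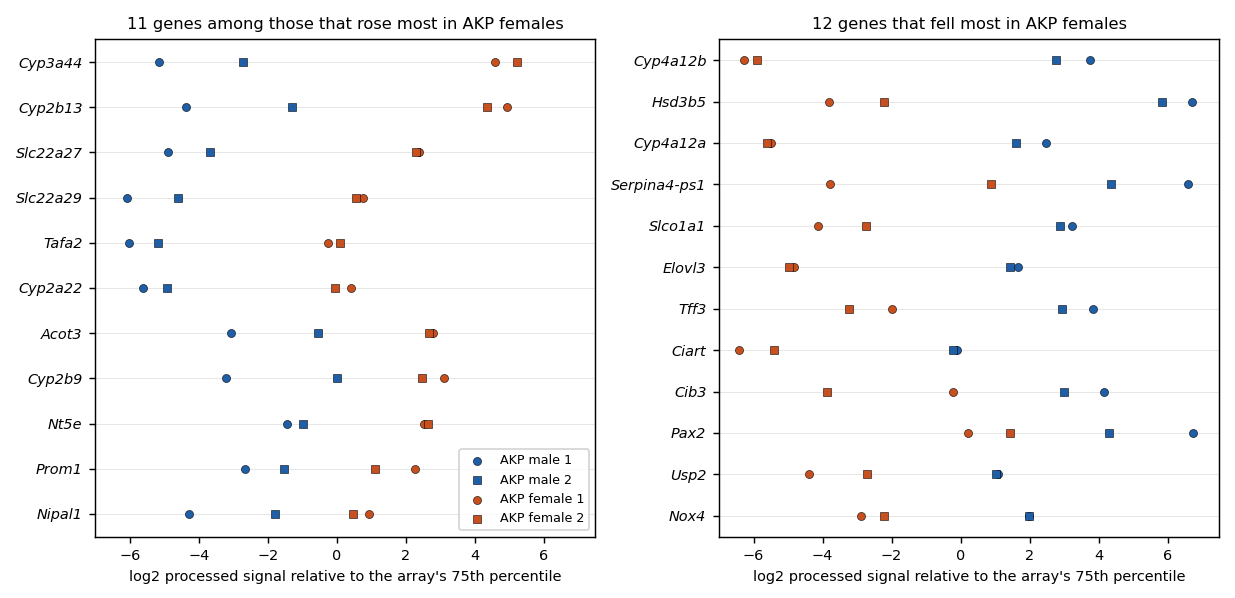
Levels of 11 autosomal genes among those that rose most and the 12 that fell most in AKP females. All were chosen from called genes well above background on all 4 arrays, with male and female arrays not overlapping. Each point is 1 array, on the log2 processed signal relative to the array's 75th percentile, with males in blue and females in orange; circles are replicate 1 and squares replicate 2. Lack of overlap was thus fixed by the choice. The arrays of a pair lie far apart from each other in Cyp2b13 males (-4.36 and -1.28) and Serpina4-ps1 females (-3.79 and 0.89).

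The largest falls in females were in steroid and fatty acid enzymes. Cyp4a12b had levels of 3.74 and 2.77 in males and -6.27 and -5.91 in females (650-fold, adjusted p = 2.1e-04). Its neighbour Cyp4a12a, a fatty acid hydroxylase of nearly the same sequence, had 2.48 and 1.60 against -5.50 and -5.62 (195-fold, adjusted p = 0.00112). Hsd3b5, a steroid reductase of male liver, had 6.72 and 5.84 against -3.83 and -2.21 (629-fold, adjusted p = 0.00183). In each of the 3, both female arrays lay at least 7 log2 units below the lower male array. Slco1a1, an organic anion uptake carrier, had 3.22 and 2.87 in males and -4.13 and -2.74 in females (89.3-fold, adjusted p = 0.00284). Elovl3, an elongase of saturated fatty acids, had 1.67 and 1.42 against -4.82 and -4.99 (87.6-fold, adjusted p = 0.00609). Nat8f5, an N-acetyltransferase family member, had 0.62 and -0.14 in males and was dark in females (-8.82 and -8.88), at least 148-fold lower (adjusted p = 3.9e-05).

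Several fallen genes are less tied to metabolism. Nox4, a NADPH oxidase, had 1.98 and 1.97 in males and -2.87 and -2.21 in females (22.9-fold, adjusted p = 0.0025). Pax2, a developmental transcription factor, had 6.73 and 4.29 against 0.21 and 1.42 (25.9-fold, adjusted p = 0.0126). Tff3, a secreted trefoil peptide of mucous epithelia, had 3.82 and 2.94 against -2.0 and -3.22 (63.8-fold, adjusted p = 0.00405), a call kept under all 15 alternatives. Serpina4-ps1, a serpin pseudogene transcript, had 6.58 and 4.34 against -3.79 and 0.89, and Cib3, a calcium-binding protein, had 4.16 and 2.99 against -0.23 and -3.88. In these last 2 genes 1 female array was intermediate (adjusted p = 0.0391 and 0.0251). Serpina4-ps1 lost its call under 7 of 15 alternatives, Cib3 under 4, and Pax2 without AKP female 1. A further 5 genes were dark in females, and the bound of Zfp536 is no lower than its plain fold. Meig1, Mep1b, Zfp536, Gldn and Trhde fell by bounds of 8.91-fold, 7.84-fold, 5.09-fold, 4.69-fold and 4.26-fold. The last 3 of these lost their calls without AKP male 1, AKP female 1 or AKP female 2. Gldn and Trhde also lost theirs on the 4 AKP arrays alone. For Gldn the call was lost under 6 of 14 alternatives, among them no filter on dim probes.

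Lists of genes known as sex-biased in mouse liver were read next. They came from general knowledge of mouse liver and were drawn up with earlier results of these data known. Of 38 female-biased genes tested, 28 rose and none fell, with a median of 2.45, against 10.0% higher over all genes tested. Of 28 male-biased genes tested, 20 fell and 1 rose, with a median of -2.23, against 13.0% lower over all. The exception was Bmper, a modulator of BMP signalling, which rose by 1.31 ± 0.22 (adjusted p = 0.0125) and lost its call under normexp, at 0.42, and without AKP male 1 or AKP female 1. Among members not yet named, Slc22a26 had 2.35 and 2.41 in females and -8.56 and -5.60 in males, with 1 male array well above background. Vldlr, a lipoprotein receptor, rose 8.03-fold (adjusted p = 0.0182), a call lost without AKP male 1, AKP female 1 or AKP female 2. Susd4, a complement regulator, had 1.99 and 1.98 in males and -2.14 and -2.20 in females (17.9-fold lower, adjusted p = 8.9e-05). Cyp7b1, the oxysterol hydroxylase of bile acid synthesis, had 5.21 and 4.18 against 1.15 and 0.94 (12.6-fold lower, adjusted p = 0.0033). Female-biased calls numbered 17 without AKP male 1 and 15 without AKP female 1. On the male-biased list 15 to 19 genes were called lower when 1 array was left out.

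Cux2, the repressor of female liver, was dark in males (-8.60 and -8.64) and measured in females (-2.47 and -2.29), at least 19.2-fold higher (adjusted p = 0.0025). Prlr, the prolactin receptor, had 2.24 and 2.75 in females and -0.48 and 1.08 in males (4.59-fold, adjusted p = 0.0271). Stat5a, Igfbp3 and Igfbp4 also rose, the last by 0.80 ± 0.14 (adjusted p = 0.0138). Ghr fell by 0.50 ± 0.14 (adjusted p = 0.0469) and lost its call under 11 of 15 alternatives. Bcl6 had 2.47 and 2.14 in males and 2.57 and 0.81 in females, so the groups overlapped (adjusted p = 0.609). Socs2, a STAT5 target, had 1.91 and -0.38 in males and 2.66 and 3.14 in females and was not called (adjusted p = 0.0645). In all, 5 of 21 genes of the axis rose, 1 fell and 15 were not called, against 10.0% higher and 13.0% lower over all genes. The 5 numbered 3 on the 4 AKP arrays alone, 2 without AKP male 1, 2 without AKP female 1 and 1 without AKP female 2, and Igfbp3 lost its call under 9 of 15 alternatives.

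Of 23 sex steroid receptor and steroid enzyme genes tested, 6 fell, 2 rose and 15 were not called. Over all genes 13.0% were lower and 10.0% higher. The median of -0.16 lay beside -0.19 for genes of like brightness. Srd5a1, the reductase that makes dihydrotestosterone, had 4.07 and 3.63 in males and 0.94 and 0.72 in females (8.09-fold lower, adjusted p = 0.00605). Hsd17b6 rose by 2.46 ± 0.61 (adjusted p = 0.035). The falls numbered 3 or 4 when any 1 array was left out and 10 after the array-median shift. Hsd17b6 lost its call under 6 of 15 alternatives, and no steroid gene was higher without AKP male 1, without AKP female 1 or on the 4 AKP arrays alone.

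Promoters are shown for 6 genes called in this comparison, chosen after their values were seen as examples that hold the palindrome TTCNNNGAA, the core letters bound by STAT factors, in the 250 bases before the start in RefSeq (GRCm38.p6). Each line reads 5′ to 3′ towards the start on the gene's own strand, with the motif in capitals. Being its own reverse complement, it was searched once for both strands. The first 4 genes rose in females and the other two fell. They lie at chr10:33857472-33857721, plus strand (Sult3a1), chr15:60921271-60921520, minus strand (A1bg), chr3:98859795-98860044, minus strand (Hsd3b1), chr19:7802668-7802917, minus strand (Slc22a26), chr19:12695540-12695789, plus strand (Keg1) and chr7:87246399-87246648, plus strand (Nox4).
Sult3a1: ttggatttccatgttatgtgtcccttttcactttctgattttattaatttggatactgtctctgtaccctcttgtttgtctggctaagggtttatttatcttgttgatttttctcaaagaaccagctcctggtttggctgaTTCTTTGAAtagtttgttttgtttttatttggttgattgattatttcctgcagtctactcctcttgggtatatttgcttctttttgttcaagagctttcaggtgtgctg
A1bg: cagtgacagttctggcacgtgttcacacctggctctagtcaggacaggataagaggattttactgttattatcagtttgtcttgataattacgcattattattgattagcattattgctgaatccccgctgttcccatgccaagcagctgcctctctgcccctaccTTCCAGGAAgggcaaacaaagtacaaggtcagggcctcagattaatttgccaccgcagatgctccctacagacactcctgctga
Hsd3b1: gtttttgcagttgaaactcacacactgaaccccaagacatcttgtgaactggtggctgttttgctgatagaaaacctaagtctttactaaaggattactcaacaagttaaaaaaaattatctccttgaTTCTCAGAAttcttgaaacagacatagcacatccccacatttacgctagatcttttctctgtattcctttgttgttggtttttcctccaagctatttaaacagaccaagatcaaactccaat
Slc22a26: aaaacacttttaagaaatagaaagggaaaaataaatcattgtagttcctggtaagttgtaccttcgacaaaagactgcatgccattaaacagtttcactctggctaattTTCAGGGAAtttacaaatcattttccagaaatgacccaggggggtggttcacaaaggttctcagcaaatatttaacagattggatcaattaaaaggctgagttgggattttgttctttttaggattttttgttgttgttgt
Keg1: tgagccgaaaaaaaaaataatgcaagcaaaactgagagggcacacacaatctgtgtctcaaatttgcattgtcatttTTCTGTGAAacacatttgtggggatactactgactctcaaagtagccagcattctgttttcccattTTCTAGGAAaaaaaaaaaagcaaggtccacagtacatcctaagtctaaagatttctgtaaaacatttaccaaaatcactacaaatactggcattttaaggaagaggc
Nox4: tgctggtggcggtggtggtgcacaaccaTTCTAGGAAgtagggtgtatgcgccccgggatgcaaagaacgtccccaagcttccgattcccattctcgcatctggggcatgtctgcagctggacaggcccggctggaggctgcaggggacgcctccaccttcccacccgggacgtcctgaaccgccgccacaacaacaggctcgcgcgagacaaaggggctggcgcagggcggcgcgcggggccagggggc

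Keg1, a glycine acyltransferase family member that fell by 1.40 ± 0.25 (adjusted p = 0.0157), holds the motif at 2 positions. Of 32851 promoters, 7.02% hold it, and 6.32% of those of tested genes do. The share was 8.94% for genes at least 4-fold higher in females and 6.19% for those at least 4-fold lower. It was 10.3% of promoters for the female-biased list (4 of 39) and 13.6% for the male-biased list (3 of 22). Of the 36 genes named by size in this comparison, 27 had a promoter in the table and 5 held the motif. Promoters on chromosome 18, where Mep1b lies, were left out of the count of 5 but not of the shares above. A match describes letters in this window and is neither a binding site nor a cause, and no match says nothing of STAT binding elsewhere.

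All 8 major urinary proteins tested, pheromone carriers of male urine, fell, against 13.0% lower over all genes, with a median of -1.06. Mup20 (darcin) had 8.37 and 8.14 in males and 6.20 and 6.28 in females (4.03-fold, adjusted p = 0.00567). Mup5 had 7.56 and 6.83 against 4.52 and 4.97 (5.45-fold, adjusted p = 0.00528), and Mup21 fell 4.47-fold (adjusted p = 0.00745). Male and female arrays did not overlap in any of the 8, nor in 67.4% of all genes in either direction. Their sequences are nearly alike, and shared signal between probes was not tested. Of the 8, 4 were called after quantile normalization and on the 4 AKP arrays alone, 5 without AKP female 2 and 3 without AKP male 1 or without AKP female 1.

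Of 35 complement and coagulation genes tested 7 fell, 1 rose and 27 were not called, against 13.0% lower over all genes. C6 had 3.34 and 2.84 in males and -0.72 and -0.30 in females (12.1-fold, adjusted p = 0.00194). C8b had 5.49 and 5.04 against 2.67 and 2.66 (6.06-fold, adjusted p = 0.00556), C8a fell 3.85-fold (adjusted p = 0.00776) and C9 fell 4.68-fold (adjusted p = 0.00999). These 4 are components of the membrane attack complex. The other falls were Masp2 and C1ra, proteases of the early steps, and Ahsg, with differences of -0.88, -0.58 and -0.66. C1ra and Ahsg lost their calls under 9 of 15 alternatives each, and Masp2 without AKP male 1, AKP female 1 or AKP female 2. The list median of -0.16, beside -0.35 for genes of like brightness, became 0.19 after quantile normalization. The falls numbered 13 after the array-median shift, 3 without AKP male 1 and 4 without AKP female 2.

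Of 23 fatty acid synthesis genes tested 7 fell, 2 rose and 14 were not called, against 13.0% lower over all genes. The median was -0.53, beside -0.27 for genes of like brightness. This programme turns glucose into fat and is driven by the transcription factor SREBP-1c, the product of Srebf1, after feeding. Thrsp, a lipogenic nuclear protein, had 7.0 and 6.65 in males and 3.79 and 3.40 in females (9.39-fold, adjusted p = 0.00903). Elovl6, an elongase, had 4.53 and 4.19 against 2.0 and 2.59 (4.18-fold, adjusted p = 0.00823). Fasn, the fatty acid synthase, had 1.48 and 1.19 against -0.51 and 0.05 (2.97-fold, adjusted p = 0.00819). In these 3 the female arrays lay below both male arrays by at least 1.1 log2 units. Srebf1 fell by 1.17 ± 0.19 (adjusted p = 0.0126) and Acaca, acetyl-CoA carboxylase, by 1.19 ± 0.27 (adjusted p = 0.0273), although the 3 Acaca probes ran from -1.68 to 0.28. Acly, ATP citrate lyase, fell by 0.94 ± 0.26 (adjusted p = 0.044) and had 0.04 (adjusted p = 0.911) as the mean of its probes. Without AKP male 1 a single gene of the list was called lower, and without AKP female 1, 4 were. Thrsp, Elovl6 and Fasn each lost the call without AKP male 1 and under no other alternative, Srebf1 also without AKP female 1, Acaca under 5 of 15 and Acly under 8.

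Of 35 genes of glycolysis, gluconeogenesis and glycogen, 9 fell, 2 rose and 24 were not called, against 13.0% lower over all genes. The median of -0.32 was no lower than the -0.35 of genes of like brightness. Slc37a4, the glucose 6-phosphate transporter, fell by 1.30 ± 0.17 (adjusted p = 0.00816), and Slc2a4, the insulin-sensitive glucose transporter of fat and muscle, fell by 3.11 ± 0.56 (adjusted p = 0.0155). Slc37a4 had 5.78 and 5.86 in males and 4.6 and 4.44 in females, and Slc2a4 had -1.46 and -2.79 against -5.42 and -5.04, so neither overlapped. Slc2a4 lost its call without AKP male 1, AKP female 1 or AKP female 2. The calls that fell were 3 after quantile normalization, on the series matrix values, with no filter or on the 4 AKP arrays alone, 5 in the replicate block, 17 after the array-median shift, and between 1 and 4 when 1 array was left out.

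Fat uptake and storage genes did not follow one direction. Cd36, a fatty acid carrier, had 1.0 and 0.92 in females and -0.73 and -0.42 in males (2.90-fold higher, adjusted p = 0.00348). Pparg, a nuclear receptor that activates Cd36 and other storage genes, had 0.67 and 0.91 against -0.49 and -0.81 (2.71-fold higher, adjusted p = 0.00527). Plin5, a droplet protein, fell by 1.32 ± 0.18 (adjusted p = 0.00823). Among 36 genes of fatty acid oxidation 6 rose and 2 fell, against 10.0% higher and 13.0% lower over all genes. The oxidation regulator Ppara was one of the 2 (it fell by 0.90 ± 0.22, adjusted p = 0.0331), a call lost under 8 of 15 alternatives. That list's rises numbered 10 after quantile normalization and between 0 and 5 when 1 array was left out, with 2 without AKP male 1, 1 without AKP female 1 and 0 without AKP female 2.

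Heat shock proteins fold proteins in the cytosol and mitochondria, and the unfolded protein response raises their counterparts in the endoplasmic reticulum. Hspb1, a small heat shock protein, had 2.83 and 2.86 in males and 1.18 and 1.04 in females (3.33-fold, adjusted p = 0.00183). Dnaja1 had 6.24 and 6.23 against 4.96 and 5.37 (2.10-fold, adjusted p = 0.0108), and Hsp90aa1 had 4.90 and 4.99 against 3.67 and 4.20 (2.02-fold, adjusted p = 0.0155). Each male pair was tight and lay above both females. Of 20 heat shock genes 9 fell and none rose, against 13.0% lower over all genes, with a median of -0.58, while genes of like brightness had a median of -0.27. The 9 became 2 after quantile normalization or on the 4 AKP arrays alone, 4 on the series matrix values, 5 with no filter, 14 after the array-median shift, 2 without AKP male 1 or AKP male 2, and 3 without AKP female 1.

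In the endoplasmic reticulum, Manf, a secreted stress factor, had 4.50 and 4.80 in males and 2.46 and 2.83 in females (4.01-fold lower, adjusted p = 0.003). Creld2 had 5.14 and 5.78 against 2.40 and 3.37 (5.96-fold, adjusted p = 0.0079). Hspa5, the chaperone BiP, had 7.13 and 7.17 against 5.89 and 6.20 (2.15-fold, adjusted p = 0.00739). Manf, Creld2 and Hspa5 kept their calls under all 15 alternatives. Ddit3, the apoptosis regulator CHOP, fell by 1.15 ± 0.22 (adjusted p = 0.0178). Over 30 genes of ATF4 and the unfolded protein response 10 fell, 2 rose (Sesn2 and Vldlr) and 18 were not called. Over all genes 13.0% were lower and 10.0% higher. The list median was -0.26, beside -0.19 for genes of like brightness. The falls numbered 5 without AKP male 1 and 4 without AKP female 1, and 6 on the 4 AKP arrays alone, and Ddit3 lost its call in all 3.

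Of 21 clock genes tested 3 fell and none rose, a share near the 13.0% lower over all genes. Ciart, a repressor of the clock, had -0.10 and -0.23 in males and -6.42 and -5.42 in females (53.9-fold lower, adjusted p = 0.0319). Usp2, a rhythmically transcribed deubiquitinase, had 1.08 and 1.01 against -4.39 and -2.70 (24.2-fold, adjusted p = 0.0281), and Tsku, a secreted hepatokine, fell 5.88-fold (adjusted p = 0.00854). In Ciart and Usp2 the male arrays lay close together, far above both females. The other 18 clock genes tested were not called. Dbp, an output regulator, had 5.81 and 5.30 in males and 2.44 and 4.08 in females (adjusted p = 0.297), and Per2 had -0.51 and -0.38 against -3.35 and -1.32 (adjusted p = 0.146). Arntl, the activator of the loop, had -3.88 and -2.76 in males against 0.12 and -2.39 in females (2.19 ± 1.19, adjusted p = 0.217). In Dbp, Per2 and Arntl the groups did not overlap and AKP female 1 lay farther from the males than AKP female 2. Of the 21 clock genes, both females lay above both males in 2 and below both males in 12. Over all genes, 67.4% did not overlap in either direction. The hour of tissue collection is not given in the sources used here. The 3 calls became 6 on the 4 AKP arrays alone, 5 after the array-median shift, 7 in the replicate block and 1 without any one of AKP male 1, AKP male 2 or AKP female 1; Ciart and Usp2 lost theirs whichever array was left out.

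The promoter of Ciart is shown because it holds 3 copies of CACGTG, the E-box read by the clock activators, in its 250 bases (chr3:95882229-95882478, minus strand, same source and build).
Ciart: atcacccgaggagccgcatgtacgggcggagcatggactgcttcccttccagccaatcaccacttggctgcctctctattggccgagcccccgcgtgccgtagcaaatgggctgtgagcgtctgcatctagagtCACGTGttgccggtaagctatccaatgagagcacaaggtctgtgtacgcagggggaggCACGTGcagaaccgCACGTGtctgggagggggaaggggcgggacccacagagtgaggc

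CACGTG reads the same on both strands. It is found in 6.02% of all promoters, 7.66% of those of tested genes and 21.7% of the 23 promoters of clock genes tested, which is a description of letters only.

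**Figure D2:**
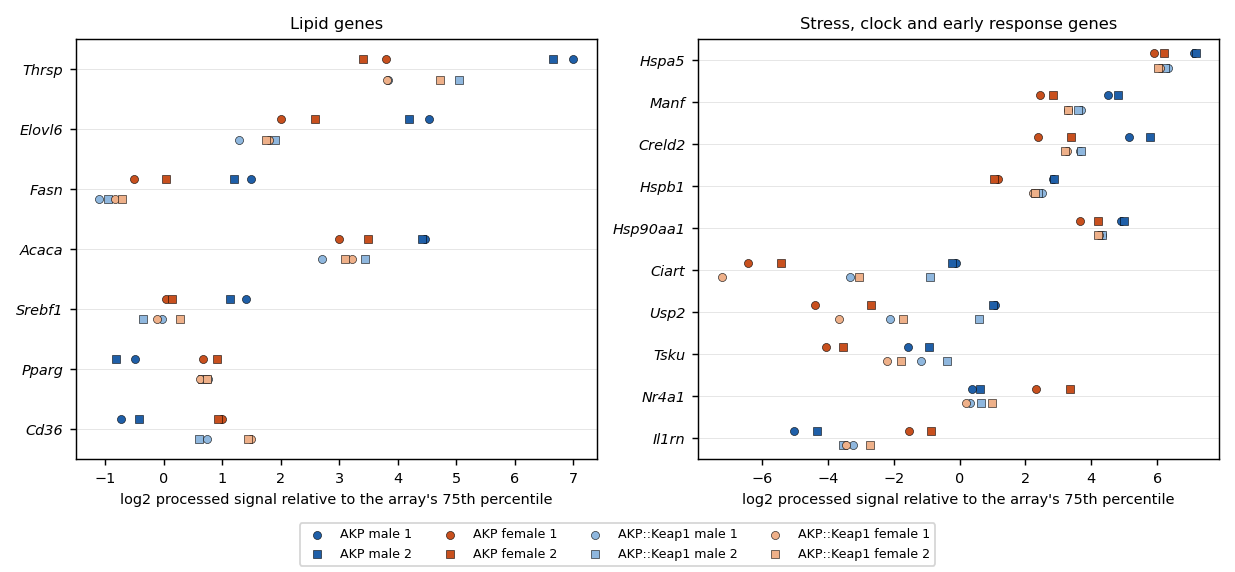
Levels of lipid, chaperone, clock and early response genes on all 8 arrays, on the log2 processed signal relative to the array's 75th percentile; each point is 1 array, dark symbols are AKP and pale symbols AKP::Keap1, with males in blue and females in orange. AKP males stand above AKP females in Thrsp (7.0 and 6.65 against 3.79 and 3.40) and Hspb1, while the AKP::Keap1 arrays of both sexes lie close together in Fasn and Hspb1.

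Of 19 immediate early genes tested 5 rose and none fell, against 10.0% higher over all genes, with a median of 0.38. Nr4a1, an immediate early nuclear receptor, had 2.31 and 3.35 in females and 0.38 and 0.61 in males (5.05-fold, adjusted p = 0.0131). Il1rn, the interleukin 1 receptor antagonist, had -1.54 and -0.87 in females and -5.02 and -4.33 in males (11.1-fold, adjusted p = 0.00466). Il1a rose by 1.93 ± 0.16 (adjusted p = 0.00266) and Il1b by 1.84 ± 0.28 (adjusted p = 0.0109). In all 3 interleukin genes both females lay above both males. Of 30 acute phase genes 3 rose and none fell, of 15 neutrophil genes 1 rose, and of 20 monocyte and macrophage genes none rose and 1 fell. None of these shares exceeded the 10.0% higher and 13.0% lower over all genes. Among 28 interferon-stimulated genes 4 rose and none fell, a share near the 10.0% over all genes, 3 of them guanylate-binding proteins (Gbp2, Gbp3 and Gbp6). Of the early genes, 1 was higher after quantile normalization, 2 after the array-median shift, on the series matrix values or with no filter, 3 after normexp, on the 4 AKP arrays alone, in the replicate block or with the filter over 8 arrays, none without AKP male 1, and 1 without AKP male 2 or AKP female 2. The interferon calls numbered 2 on the 4 AKP arrays alone, 8 with trend and robust variance, 0 without AKP male 1 or AKP female 1, 1 without AKP female 2 and 7 without AKP male 2. The 2 Gbp6 probes differed, with 0.14 and 2.47.

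Of 20 T and NK cell genes tested 9 rose and none fell, against 10.0% higher over all genes, with a median of 0.93. Il7r, the interleukin 7 receptor, had -4.17 and -4.38 in females and -5.82 and -5.57 in males (2.68-fold, adjusted p = 0.00409). Cd5 rose by 1.08 ± 0.15 (adjusted p = 0.00931) and Klrk1, the receptor NKG2D, by 1.46 ± 0.22 (adjusted p = 0.0103). Of 13 B and plasma cell genes 7 rose and none fell, with a median of 1.06. Fcer2a rose by 1.0 ± 0.14 (adjusted p = 0.00852). Both female arrays lay above both male arrays for 17 of the 20 T and NK cell genes and 11 of the 13 B and plasma cell genes, against 67.4% of all genes not overlapping in either direction. With genes dark in one sex set at their bound the medians were 0.87 and 0.84. Most of these genes are dim, and genes of like brightness had a median of 0.17 for both lists. After the normexp background correction the medians were 0.40 for T and NK cells and 0.35 for B and plasma cells, each with 4 calls, Il7r, Klrk1 and Fcer2a lost their calls at 0.098, 0.20 and 0.13, and Cd79a and Ncr1 turned to -0.24 and -0.16 (adjusted p = 0.32 and 0.462). T and NK calls numbered 4 without AKP male 1, 3 without AKP female 1 and 6 without AKP female 2, and B and plasma cell calls 2, 2 and 3, with 3 without AKP male 2.

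None of 12 Kupffer cell genes was called in either direction (median 0.54), as was none of 6 erythroid genes. Of 26 stellate cell and fibrosis genes 6 rose and 1 fell, against 10.0% higher and 13.0% lower over all genes. The rises included Col3a1 (0.77 ± 0.14, adjusted p = 0.0171) and Postn (0.71 ± 0.11, adjusted p = 0.0117), and Tagln fell by 1.14 ± 0.17 (adjusted p = 0.0102). No stellate gene rose without AKP male 1 or AKP female 1, and 2 stellate genes rose without AKP female 2 or on the series matrix values. Of 32 hepatocyte identity genes 1 rose and 2 fell, with a median of -0.31 that became 0.098 after quantile normalization and 13 genes lower after the array-median shift. In the 9 genes tested for mucin-type epithelium Tff1 and Tff3 fell, against 13.0% lower over all genes, and the list median was 0.11. Tff1 lost its call under 3 of 14 alternatives, among them normexp, and its difference ran from -2.78 to -0.49 over the 14. Of 31 proliferation genes 2 were higher and 2 lower, against 10.0% higher and 13.0% lower over all genes. Their median was 0.24, beside 0.17 for genes of like brightness. Ccne1, cyclin E1, fell by 2.47 ± 0.50 (adjusted p = 0.0204), a call lost without AKP male 1, AKP male 2 or AKP female 1.

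**Figure D3:**
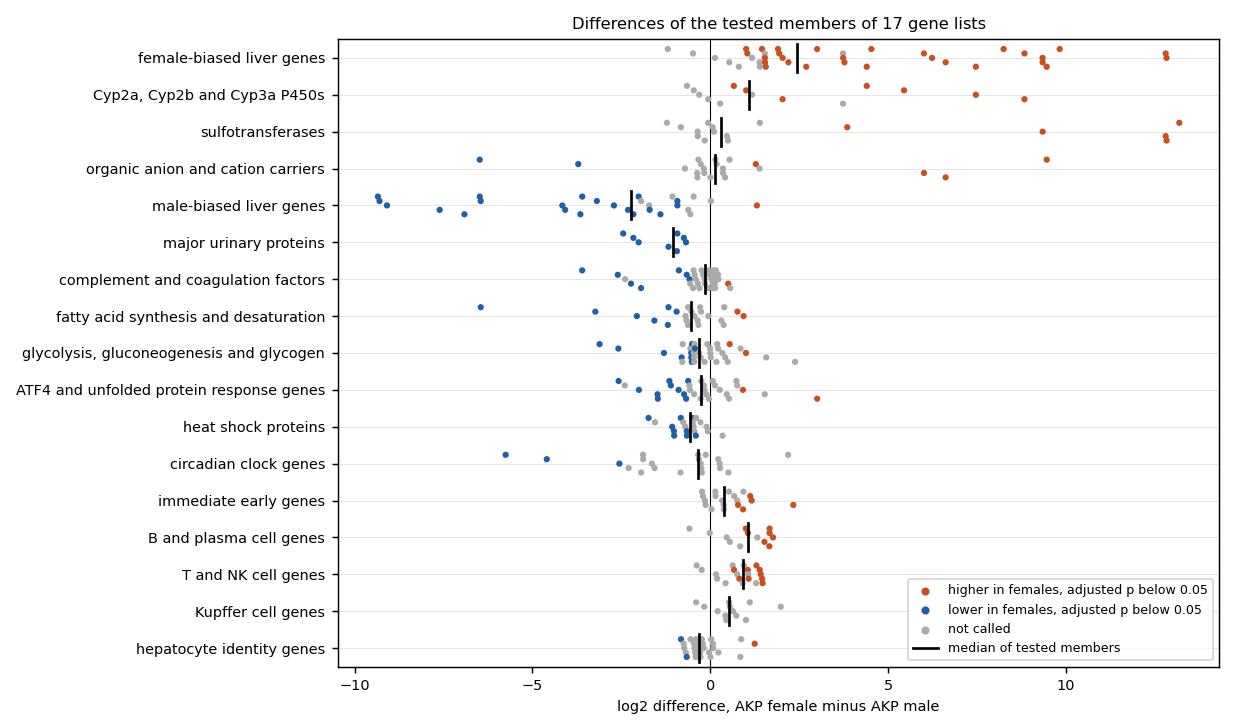
Log2 differences, AKP female minus AKP male, of the tested members of 17 gene lists. Each point is 1 gene, orange where called higher in females, blue where called lower and grey where not called at an adjusted p below 0.05, and the black bar is the list median. The median is 2.45 for the female-biased list, -2.23 for the male-biased list, -0.58 for heat shock proteins and 0.93 for T and NK cell genes.

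Targets of Nrf2 and p53 showed no common direction. Of 33 Nrf2 targets 4 rose and 1 fell, against 10.0% higher and 13.0% lower over all genes. Their median was -0.04, and its sign also turned after quantile normalization. Nqo1, a quinone reductase induced by Nrf2, had 0.11 and -0.49 in females and -2.28 and -1.42 in males (3.16-fold higher, adjusted p = 0.0174), and Ces1g rose by 1.67 ± 0.25 (adjusted p = 0.0108). Gstp1, a male-biased and Nrf2-linked glutathione transferase, was not on this list of 33 and is not the 1 that fell. It had 7.14 and 6.84 in males and 4.35 and 4.22 in females (6.53-fold lower, adjusted p = 8.6e-04). Of 26 p53 pathway genes 3 rose (Sesn2, Fas and Ei24) and 4 fell (Bax, Tigar, Zmat3 and Aen), shares near those over all genes. Without AKP male 1 no p53 pathway gene was called, and no Nrf2 target rose without AKP female 1. Nqo1 lost its call on the 4 AKP arrays alone, without AKP male 1 and without AKP female 1.

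The same contrast in AKP::Keap1 livers, which shares no array with the AKP contrast, called 557 of 14537 genes (3.83%), 178 higher and 379 lower in females. Both contrasts called 256 genes, 7.66% of the AKP calls and 46.0% of the AKP::Keap1 calls, and 241 of them went the same way. Of all 3344 AKP calls, 2403 (71.9%) had the same sign in AKP::Keap1, and of the 228 called at least 4-fold, 200 did. Among the largest differences, Cyp4a12b had -9.34 in AKP and -8.50 in AKP::Keap1, Slco1a1 had -6.48 and -6.35, Hsd3b5 had -9.30 and -11.43, Pax2 had -4.69 and -8.95, and Tff3 had -6.0 and -1.44. Neither Pax2 (adjusted p = 0.0871) nor Tff3 (adjusted p = 0.0517) was called in the test between the contrasts. In 27 of 28 male-biased and 36 of 38 female-biased genes the sign was shared. The heat shock list had a median of -0.58 in AKP and 0.07 in AKP::Keap1, and fatty acid synthesis had -0.53 and 0.22. Such a move was not particular to these lists. Urea cycle and amino acid breakdown had -0.24 and 0.40, and cholesterol synthesis and uptake -0.14 and 0.75. The ATF4 and unfolded protein response list moved the other way, with -0.26 and -0.36. Medians for genes of like brightness were not taken in AKP::Keap1. Across 14536 genes the differences correlated at 0.58 (Pearson) and 0.38 (Spearman), a description in which both contrasts set the same scan days against each other.

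**Figure D4:**
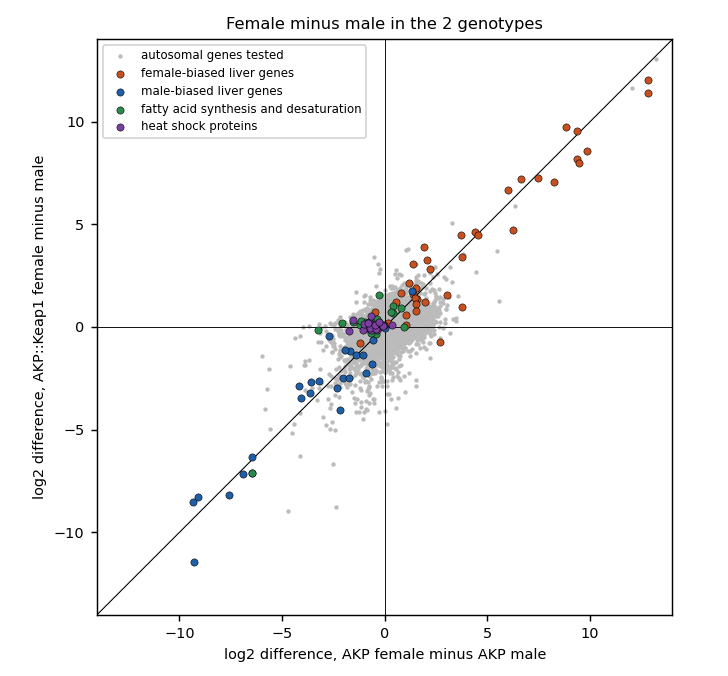
Female minus male log2 differences of 14536 autosomal genes in AKP (horizontal) and in AKP::Keap1 livers (vertical), 1 point a gene, with 4 lists coloured and the diagonal marking equal differences. The sign is shared by 36 of 38 female-biased and 27 of 28 male-biased genes, with Gstp1 off the diagonal at -2.71 and -0.45, while heat shock proteins spread below 0 in AKP (median -0.58) around 0.07 in AKP::Keap1.

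A test of the difference between the contrasts called 316 of 14536 genes (2.17%), 220 with a higher female minus male value in AKP and 96 with a lower one. All 4 groups were on separate slides, so slide and genotype cannot be told apart in this test. The genes called here from the lists included Fasn, Elovl6, Plin5, Pparg, Manf, Hspb1, Il1a, Il1rn and Gstp1. For Fasn the difference was -1.57 in AKP and 0.25 in AKP::Keap1 (adjusted p = 0.0401), for Hspb1 -1.73 and -0.18 (adjusted p = 0.0191), and for Gstp1 -2.71 and -0.45 (adjusted p = 0.0138). Pparg had 1.44 and -0.03 (adjusted p = 0.0371), and Il1rn had 3.47 and 0.29 (adjusted p = 0.0387). Thrsp (adjusted p = 0.0639), Srebf1 (0.0558) and Hspa5 (0.0686) were not called in this test. The 3 called Mup genes went the other way: Mup5 had -2.45 in AKP and -5.03 in AKP::Keap1 (adjusted p = 0.0362). None of the female-biased list was called, and 3 of the male-biased list were (Susd4, Gstp1 and Mup3). With AKP male 1 left out 48 genes were called in this test, with AKP male 2 out 30, with AKP female 1 out 22 and with AKP female 2 out 2.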

How the data were processed

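RNA of 8 whole livers was hybridised to 1-colour Agilent mouse arrays (design 026655), 2 mice in each of 4 groups. The deposited intensities are processed signals, background-subtracted and detrended by Feature Extraction 10.7.3.1 with mm9 annotation, per the file headers; the submitters' processing notes name version 10.1. The deposited series matrix intensities equal these signals within 1e-06 of the value in 355176 of 355176 values.

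Log2 intensity minus the array's 75th percentile was analysed in R 4.3.3 with limma 3.58.1 (lmFit, eBayes, Benjamini-Hochberg over all genes fitted). Only autosomal genes were then counted and named. All 4 groups entered 1 fit with 4 residual degrees of freedom, and 8 arrays in all limit the precision. Probes well above background on at least 2 of 4 AKP arrays were kept, and the brightest probe stood for a gene. Of 39429 probes, 26055 had 1 gene symbol and 13374 none. The 518 other genes fitted are not reported, and 6 autosomal genes lacked an AKP value. The fit was tested on simulated data. The normexp alternative used the median spot signal, because the files give no mean signal. No other per-sample columns were left unused (0).

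Genes were named by rule: the 12 largest rises and falls above background on all 4 AKP arrays, the 6 largest bounds each way, the 5 largest differences each way between genotypes, up to 3 called members of a list each way, and Keap1, Trp53 and Nfe2l2. The 12 largest each way were also required to have male and female arrays that did not overlap. Further list members were named after their values were seen. Members and lists were chosen with earlier results of these data known. Promoters came from RefSeq (GRCm38.p6). Some results are not reported here.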

Additional observations from a re-analysis of the deposited data

Results flagged for a closer look

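The difference between the sexes itself differed between AKP and AKP::Keap1 livers for 28 named genes, by limma's test of the female minus male difference in AKP less that in AKP::Keap1 (adjusted p below 0.05). Values below are that log2 difference of differences, and each group has 2 arrays. Every group was alone on its own slide, so slide and genotype cannot be told apart in these values.

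Among genes named by size, Tafa2 had 4.28 (adjusted p = 0.0138), with 5.54 in AKP and 1.26 in AKP::Keap1. Cryaa, a lens crystallin and small chaperone, had 4.13, with -2.52 in AKP and -6.65 in AKP::Keap1. Abcc12 had 4.09, Tbx10 3.86 and Bard1 3.83, each with an AKP::Keap1 difference of -3.46, -4.15 and -3.51 and no call in AKP. In the other direction Mfsd2a, a lysolipid carrier, had -3.95, Gfra4 -3.35, Kyat3 -3.07, Hpdl -2.74 and Krtap19-4 -2.55. The Gfra4 probes ran from -3.22 to 0.24 in AKP. Mfsd2a and Kyat3 were not called in AKP and had 3.41 and 2.81 in AKP::Keap1.

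Of the lipid and sterol genes, Fasn had -1.82, Elovl6 -2.25, Mvd -1.89, Plin5 -1.41 and Pparg 1.47. The chaperone genes Manf and Hspb1 had -1.65 and -1.56. Il1rn had 3.18 and Il1a 1.55. Of the glutathione transferases, Gstp1 had -2.25 and Gstm2 -1.08. The urinary proteins Mup3, Mup5 and Mup6 had 1.32, 2.58 and 2.67, and they fell further in AKP::Keap1 females. Susd4 had -1.30, Fmo4 1.96, the growth factor Mdk 1.11 and the thymidylate synthase Tyms 2.20.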

How the results depend on the processing

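The count of AKP calls, 3344, became 2218 after quantile normalization, 1849 on the series matrix values without scaling, 1855 with the 4 AKP arrays alone, and 562 to 1640 when 1 array was left out. The 316 calls of the test between genotypes became 191 after quantile normalization, 1351 after the array-median shift, 568 on the series matrix values, 125 with no filter, 715 with trend and robust variance, and 2 to 48 when 1 AKP array was left out. Cd79a and Ncr1 turned to -0.24 and -0.16 under normexp, and Mdk and Acly to -0.087 and 0.043 as the mean of their kept probes. The cause was not tested. The replicate block gave 2799 and 140 calls; mice of one number are not stated to be paired, and their deviations correlated at -0.0028 between AKP males and females. Other alternatives kept both counts within 1.5 times. Keap1 was called, at -0.49, after the array-median shift (adjusted p = 0.0436). Dim probes limit what can be measured: 179 called genes were below background on both arrays of one sex.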

Other observations

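Of 25 metallothionein, iron and heme genes tested 5 fell, 1 rose and 19 were not called, with a median of -0.0095. Over all genes 13.0% were lower and 10.0% higher. Alas1, the rate-limiting first enzyme of heme synthesis, had levels of 7.61 and 7.16 in males and 4.72 and 5.66 in females (4.57-fold lower, limma adjusted p = 0.0172), and lost its call without AKP male 1 or AKP female 1. Urod fell by 0.65 ± 0.13 (adjusted p = 0.0192), and it lost its call under 5 of 15 alternatives, while Fech and Alad lost theirs under 10 and 11. Hamp2, a hepcidin gene, had 6.69 and 6.05 in females and 4.77 and 4.16 in males (3.75-fold higher, adjusted p = 0.0155). Without AKP male 1 or AKP female 1 no gene of the list was called.

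Slc10a2, the sodium-dependent bile acid carrier, had 0.83 and -0.15 in males and -3.05 and -3.69 in females (13.1-fold lower, adjusted p = 0.00686). Abcg8, a sterol exporter, had 0.51 and 0.51 in females and -0.78 and -0.92 in males (2.58-fold higher, adjusted p = 0.00409). Both calls were kept under all 15 alternatives. Aldh3a2, a fatty aldehyde dehydrogenase, had 2.51 and 2.54 in females and -0.72 and -0.20 in males (7.94-fold higher, adjusted p = 0.00574). Of 15 carboxylesterases 4 rose, all of the Ces1 group, and 4 fell, from Ces2b, Ces3a, Ces3b and Ces4a; without AKP male 1, 2 rose and 0 fell, and without AKP female 1, 1 rose and 1 fell.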
